A study of Mus musculus with 13 samples.

Results

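The genes of the epidermal differentiation complex were followed through pregnancy in mouse abdominal skin. The members were taken by symbol: every gene whose symbol starts with Lce, Sprr or S100a, together with Lor, Flg, Flg2, Hrnr, Rptn, Crnn, Tchh, Tchhl1 and Ivl. This gave 59 of the 21950 genes in the bulk table, and the same 59 symbols under 65 of the 28693 gene IDs in the single-cell tables, where Flg alone has 7 IDs that were summed. By family there were 21 Lce, 15 Sprr and 14 S100a genes, 7 genes of the fused type (Flg, Flg2, Hrnr, Rptn, Crnn, Tchh and Tchhl1), and Lor with Ivl. All of them lie within 3.05 megabases of mouse chromosome 3 (mm10).

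The bulk libraries were 3 each of K14creERT2;Tbx3flox/flox mice at gestation day 16 (cKO), wild type mice at gestation day 16 (WT dpc16) and non-pregnant wild type mice (WT NP), all C57BL/6. They were made from abdominal cells sorted as positive for CD49f, an integrin of the basal layer, and negative for CD34, a marker of the hair follicle bulge. K14creERT2 is a tamoxifen-activated recombinase under the keratin 14 promoter, which is active in basal keratinocytes, and Tbx3 is a T-box transcription factor. Single-cell libraries came from unsorted abdominal epidermis of tamoxifen-treated C57BL/6 mice carrying Tbx3creERT2 and R26H2B EGFP, alleles that let a label be switched on in cells expressing Tbx3, with 1 library for each of 4 states: NP, dpc16, and days 6 and 40 after birth of the litter (dpp6 and dpp40). The labels do not say whether bulk WT mice had tamoxifen, nor which animals gave which library, so the spread behind the p-values may be technical.

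The epidermis renews itself from a basal layer, whose daughters move up through spinous and granular layers and end as flat, dead cornified cells. The complex encodes much of the cornified envelope, the protein shell that replaces the membrane of those cells: loricrin (Lor) and involucrin (Ivl), the small proline-rich proteins (Sprr), the late cornified envelope proteins (Lce), and the fused-type proteins such as filaggrin (Flg), which bundles keratin filaments. The S100a genes at either end of the region encode small calcium-binding proteins, many of which are made outside the granular layer too.

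Sequences upstream of the gene starts are shown for the members on which the comparisons turn. They comprise the first listed start of S100a16 and the start of Sprr2a3, both lower in cKO cells, Ivl, whose level ran against that of the Lce genes in single granular cells, and Lce1m, whose level in single granular cells ran apart from those of Lce1a1 and Lce1a2. Each run holds the 250 bases before a RefSeq start (GRCm38.p6, the mm10 assembly), 5′ to 3′ on the gene's own strand. Capitals mark any match on either strand to a set of motifs. The core of a T-box site was searched as AGGTGTG. The AP-1 site was searched as TGANTCA. The TATA box was searched as TATAAA. No matches overlap in the windows shown, and the windows without capitals hold none. The Sprr2a3 window ends some way before the GENCODE start given for that gene below, and the bases between are not in the window.
S100a16, plus strand, chr3:90537004-90537253: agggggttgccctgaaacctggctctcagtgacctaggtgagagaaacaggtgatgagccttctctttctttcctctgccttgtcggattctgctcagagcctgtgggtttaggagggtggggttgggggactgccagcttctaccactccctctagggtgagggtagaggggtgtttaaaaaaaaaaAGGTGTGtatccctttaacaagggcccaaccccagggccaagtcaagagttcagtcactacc
Sprr2a3, plus strand, chr3:92285054-92285303: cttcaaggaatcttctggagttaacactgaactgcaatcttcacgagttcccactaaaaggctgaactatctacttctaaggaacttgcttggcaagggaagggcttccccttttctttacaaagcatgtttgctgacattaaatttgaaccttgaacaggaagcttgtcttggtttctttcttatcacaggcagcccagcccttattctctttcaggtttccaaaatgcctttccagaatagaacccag
Ivl, minus strand, chr3:92573736-92573985: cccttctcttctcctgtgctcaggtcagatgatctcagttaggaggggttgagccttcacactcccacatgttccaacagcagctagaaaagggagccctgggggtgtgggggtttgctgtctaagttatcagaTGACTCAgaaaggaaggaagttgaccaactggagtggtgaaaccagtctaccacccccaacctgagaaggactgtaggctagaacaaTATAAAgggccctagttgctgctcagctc
Lce1m, minus strand, chr3:93019062-93019311: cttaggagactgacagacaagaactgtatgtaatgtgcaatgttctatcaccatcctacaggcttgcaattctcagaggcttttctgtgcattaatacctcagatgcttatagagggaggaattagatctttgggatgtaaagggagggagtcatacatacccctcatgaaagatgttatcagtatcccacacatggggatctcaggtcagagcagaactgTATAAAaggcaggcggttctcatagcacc
Lce1a1, minus strand, chr3:92648308-92648557: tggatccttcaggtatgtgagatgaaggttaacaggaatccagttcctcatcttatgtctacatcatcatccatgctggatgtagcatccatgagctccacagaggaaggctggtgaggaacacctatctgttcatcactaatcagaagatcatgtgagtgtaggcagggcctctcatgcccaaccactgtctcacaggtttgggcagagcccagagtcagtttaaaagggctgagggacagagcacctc
Lce1a2, minus strand, chr3:92670316-92670565: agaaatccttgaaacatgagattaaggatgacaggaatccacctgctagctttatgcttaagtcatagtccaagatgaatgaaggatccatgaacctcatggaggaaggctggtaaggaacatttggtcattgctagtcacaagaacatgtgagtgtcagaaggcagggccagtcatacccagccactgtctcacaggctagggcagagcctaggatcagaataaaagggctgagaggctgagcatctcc

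The S100a16 window held the T-box letters once, starting 62 bases before the gene start. The Ivl window held the AP-1 letters 116 bases and the TATA letters 29 bases before the start, and Lce1m held the TATA letters at the same distance of 29 bases. Promoter entries were found for 54 of the 59 members, with 58 windows in all. The T-box letters were in 5 of these 58 windows (8.6%) and in 5.1% of all 32817 windows of the same length. By family they were in 4 of 20 Lce, 0 of 14 Sprr and 1 of 15 S100a windows. The AP-1 letters were in 18 of 58 member windows (31.0%), against 6.8% of all windows. Within the complex they were in 9 of 14 Sprr windows and 0 of 20 Lce windows. The TATA letters were in 39.7% of member windows and 12.4% of all windows. Aligned over 250 bases, the Lce1m window was 52.5 to 55.8% identical to those of the other Lce1 genes (12 pairs). The other Lce1 windows were 52.4 to 85.6% identical to each other (66 pairs, median 65.5%), and Lce1m was 45.6 to 54.5% identical to the windows of 34 members that are not Lce, 1 window each.

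In the sorted cells, the abundant members were all S100a genes, and the genes of the outer layers were at low levels. FPKM is a count of sequenced fragments scaled to transcript length and to library depth. Over the 9 libraries S100a11 averaged 2628, S100a10 1300, S100a6 1179, S100a14 932 and S100a16 321 FPKM. Lor averaged 13.3, Ivl 7.31, Lce1m 11.9 and Flg2 2.52 FPKM. A total of 14 members were listed at 0 in every library, and 21 passed the filter of a mean of at least 1 FPKM that was set for testing: 9 S100a, 5 Lce, 3 Sprr, 2 fused-type genes, Lor and Ivl. The lowest member inside that filter was Lce1c, with 1.015 FPKM, and the highest outside it was S100a7a, with 0.846 FPKM. Markers of the basal layer summed to 22550 to 40090 FPKM in the 9 libraries and those of the granular layer to 240 to 622 FPKM. Low values of genes with 1 annotated transcript lay at steps of a fixed size in each library (75.3 to 87.2% within 0.15 of a whole step), which put the libraries at about 15.3 to 24.8 M fragments for cKO, 24.9 to 32.5 M for WT dpc16 and 14.5 to 15.9 M for WT NP.

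The first bulk comparison asks what deletion of Tbx3 does to the pregnant epidermis. Tbx3 itself measured 4.81, 1.65 and 4.89 FPKM in the 3 cKO libraries, against 16.96, 15.3 and 23.0 FPKM in the 3 WT dpc16 libraries (limma, log2 change -2.09 ± 0.31, SE, adjusted p = 0.0124). Of the 21 members tested, 3 were lower in cKO cells and 0 were higher: the calcium-binding genes S100a14 and S100a16 and the small proline-rich gene Sprr2a3. That is to be read against 2.15% of all 11497 genes tested that passed in either direction, with 0.922% lower and 1.23% higher. In total, 5 members had an unadjusted p under 0.05, against 17.4% of all genes tested. The median log2 change of the 21 members was -0.41, with 15 of them below 0, and that of all genes tested was 0.01.

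S100a14 (chr3:90526856-90528837) encodes an S100 protein of epithelial cells. It measured 439, 528 and 727 FPKM in cKO libraries, against 920, 958 and 1131 FPKM in WT dpc16 libraries. Each cKO library lay below each WT dpc16 library. The log2 change was -0.85 ± 0.19 (SE, n = 3 each, adjusted p = 0.0476 by limma). S100a16 (chr3:90537254-90543151) lies next to it and encodes another widely made S100 protein. It measured 179, 202 and 228 FPKM in cKO libraries, against 332, 329 and 355 FPKM in WT dpc16 libraries, with no overlap. Its log2 change was -0.74 ± 0.15 (SE, n = 3 each, adjusted p = 0.0405 by limma).

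Sprr2a3 (chr3:92285417-92291405) encodes a proline-rich precursor of the envelope and has near-identical copies, Sprr2a1 and Sprr2a2, between which the authors' estimates could divide fragments. It measured 0.156, 0 and 0.0845 FPKM in cKO libraries, against 4.11, 1.75 and 10.7 FPKM in WT dpc16 libraries. The groups did not overlap, although the WT dpc16 libraries themselves differed by several fold. The log2 change was -2.34 ± 0.51 on the log2(FPKM + 1) scale, which understates changes at low FPKM (adjusted p = 0.047 by limma). With a pseudocount of 0.1 in place of 1 it was -4.70.

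All 3 calls are close to the threshold of 0.05. Leaving out 1 library at a time ended the Sprr2a3 call in 9 of 9 fits (adjusted p 0.0514 to 0.14), the S100a14 call in 8 of 9 (0.0139 to 0.157, all but the one without cKO library 3) and the S100a16 call in 6 of 9 (0.026 to 0.141, those without any WT dpc16 library, cKO library 1 or 2, or WT NP library 2). With no filter on low values none of the 3 passed (adjusted p = 0.112 for S100a14, 0.074 for S100a16 and 0.112 for Sprr2a3). The direction was the same in each of these fits.

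Lce6a and Ivl also stood apart in all libraries without passing the test. Lce6a, which lies at the edge of the Lce cluster beside Ivl, measured 0.264, 2.61 and 2.04 FPKM in cKO libraries, against 6.29, 5.81 and 11.9 FPKM in WT dpc16 libraries (log2 change -1.84 ± 0.46, adjusted p = 0.0723 by limma). Involucrin (Ivl) measured 3.05, 4.27 and 4.201 FPKM in cKO libraries, against 6.42, 7.12 and 13.9 FPKM in WT dpc16 libraries (log2 change -1.01 ± 0.31, adjusted p = 0.124 by limma). Counting these and Sprr4, whose 1.56, 0 and 0 FPKM in cKO libraries lay below 4.73, 2.79 and 1.80 FPKM in WT dpc16 libraries, 6 of the 21 members did not overlap between the groups, and the share among all genes tested was 26.2%. S100a4 (log2 change -1.14 ± 0.67) and S100a9 (1.30 ± 0.64, with 8.93 FPKM in cKO library 1 and under 1 FPKM in the other cKO libraries) overlapped between the groups.

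The members best known for the granular layer did not pass the test. Lor measured 11.03, 30.9 and 10.2 FPKM in cKO libraries and 9.25, 14.1 and 7.46 FPKM in WT dpc16 libraries (log2 change 0.57 ± 0.47, adjusted p = 0.582 by limma). The log2 difference was 0.34 ± 0.73 for Lce1m and 0.45 ± 0.39 for Flg2, neither past the threshold. Tchh averaged 2.44 ± 0.345 FPKM in cKO libraries and 2.27 ± 0.0979 FPKM in WT dpc16 libraries, and Lce1a1 0.844 ± 0.503 and 1.86 ± 1.70 FPKM (SD, n = 3 each). S100a10, which forms a complex with annexin A2, held 1239, 1261 and 1414 FPKM in cKO libraries and 1239, 1272 and 1269 FPKM in WT dpc16 libraries. S100a11 averaged 2198 ± 379 FPKM in cKO libraries and 2627 ± 333 FPKM in WT dpc16 libraries (SD, n = 3 each), a log2 difference of -0.26 ± 0.16. S100a13 averaged 40.7 ± 14.8 FPKM in cKO libraries and 45.6 ± 0.909 FPKM in WT dpc16 libraries, with cKO library 2 the lowest of all.

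**Figure D1:**
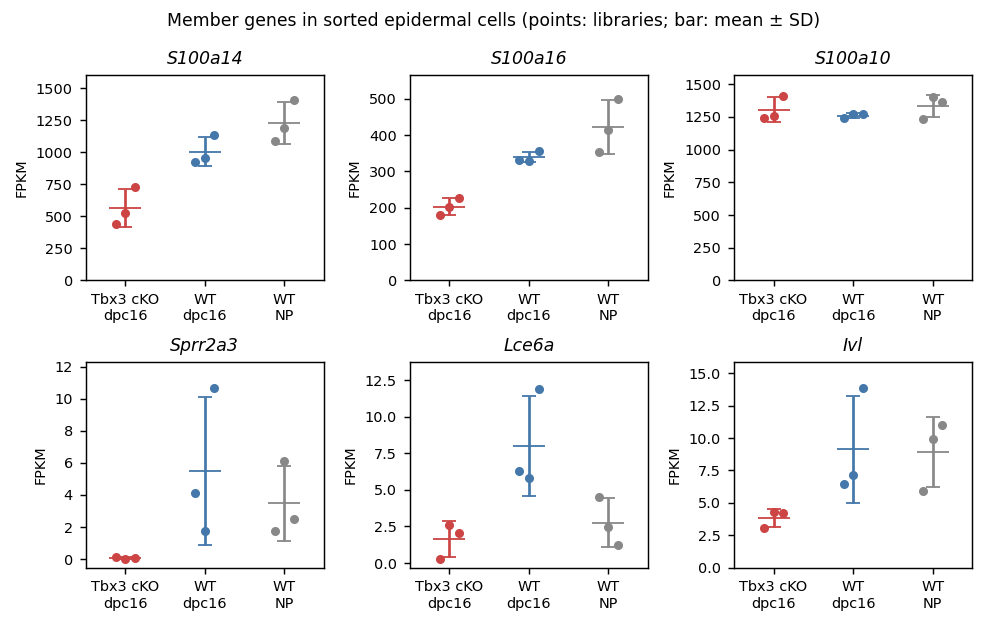
FPKM of 6 members in the 3 cKO, 3 WT dpc16 and 3 WT NP libraries (points), with the mean and SD of each group (bars). S100a14 and S100a16 are lowest in all 3 cKO libraries, S100a10 is level at 1238 to 1414 FPKM, and Sprr2a3, Lce6a and Ivl are at few FPKM in every group.

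Genes that work with the complex were read from 5 lists. Of 26 tested regulators, 2 were lower in cKO cells than in WT dpc16 cells and 0 were higher. Among those lower was Grhl3, a grainyhead factor of barrier formation. Grhl3 measured 4.72, 5.96 and 5.27 FPKM in cKO libraries, against 15.3, 16.5 and 14.7 FPKM in WT dpc16 libraries (log2 change -1.39 ± 0.18, adjusted p = 0.00657 by limma). Of 22 tested envelope partners and crosslinkers, the spinous keratin Krt1 was lower (log2 change -2.51 ± 0.35, adjusted p = 0.00943 by limma) and sciellin (Scel), an envelope precursor, was higher (0.99 ± 0.20, adjusted p = 0.0345 by limma). Of 4 tested genes of a list for the rest of the region, which also held the member Lce6a, Pglyrp4, a peptidoglycan-binding protein, was lower (log2 change -2.20 ± 0.36, adjusted p = 0.0172 by limma). Of 10 tested S100 partners and receptors 0 passed, with 3 at an unadjusted p under 0.05. Of 7 tested stress keratins and alarmins, Stfa3, a stefin, was lower (log2 change -3.30 ± 0.70, adjusted p = 0.0447 by limma) and the cytokine Tslp was higher (1.40 ± 0.29, adjusted p = 0.042 by limma). The median log2 change was -0.19 for the regulators, -0.11 for the partners, 0.03 for the S100 partners and -1.05 for the stress genes. It was -0.95 for the 4 genes of the region list, the member Lce6a included.

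Markers of cell layers differed between the same libraries. The 15 spinous markers summed to 6214 to 8247 FPKM in cKO libraries and 10470 to 20990 FPKM in WT dpc16 libraries, without overlap; 13 of 15 had a log2 change below 0 and 1, Krt1, passed as lower. The 11 basal markers summed to 22550 to 30470 FPKM in cKO libraries and 33490 to 37300 FPKM in WT dpc16 libraries, and 1 of 11 passed, as higher. The 22 granular markers overlapped, with 293 to 495 FPKM in cKO libraries and 330 to 399 FPKM in WT dpc16 libraries; their median log2 change was 0.41, with 7 of 20 tested below 0, and 1, Elovl4, passed as lower. No marker of these 3 lists was at 0 in all libraries. The granular list holds Tgm3, which was among the leading genes of the single-cell clusters 0 and 1 with basal markers. That list also holds Cst6, an infundibulum marker too, so the granular sum is not particular to granular cells. Markers of other cells also differed: the 9 fibroblast markers summed to 22.5 to 55.7 FPKM in cKO libraries and 115 to 126 FPKM in WT dpc16 libraries, and the 6 smooth muscle and pericyte markers to 24.0 to 49.3 and 6.75 to 7.25 FPKM. The 10 T cell markers in the table summed to 123 to 644 FPKM in cKO libraries, lowest in cKO library 1, and to 671 to 857 FPKM in WT dpc16 libraries. Only 2 fibroblast, 4 smooth muscle and pericyte and 3 T cell markers passed the filter for testing, so these sums rest on few genes. In bulk RNA fewer cells of a layer and less RNA per cell cannot be told apart, and the part of these cells in the S100a14 and S100a16 values was not tested. In single cells, whose molecules are counted as UMIs, levels are given as CPM, the UMIs of a gene scaled to a common total. There S100a14 had 903 CPM in the largest cluster with basal markers, 724 in spinous-like and 957 in granular-like cells, and S100a16 had 591, 606 and 506. The immune clusters had 556 CPM of S100a14 and 436 CPM of S100a16. They also held 12450 CPM of basal and 21300 CPM of spinous markers, and doublets, droplets with several cells, remain in the data. Free RNA and mixed droplets cannot be told apart there, so these values are no baseline for the S100a genes. The fibroblast markers had 366 CPM in the bulge-like clusters and 47.9 CPM in the immune clusters, so they are not particular to fibroblasts.

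The second bulk comparison asks what pregnancy does to the same sorted cells. Of the 21 members, 0 passed the test between WT dpc16 and WT NP (0.13% of all genes tested passed, 0.104% as higher and 0.0261% as lower), and 2 had an unadjusted p under 0.05 (9.05% of all genes tested). These 2 were Lce6a and S100a6. Lce6a measured 6.29, 5.81 and 11.9 FPKM in WT dpc16 libraries, against 4.53, 2.49 and 1.22 FPKM in WT NP libraries. Each WT dpc16 library was above each WT NP library (log2 change 1.30 ± 0.46, adjusted p = 0.39 by limma). S100a6, known as calcyclin, measured 670, 786 and 1544 FPKM in WT dpc16 libraries, against 1245, 1338 and 2384 FPKM in WT NP libraries (log2 change -0.76 ± 0.34, adjusted p = 0.545 by limma). The median log2 change of the members was -0.27, with 16 of 21 below 0, beside -0.03 for all genes tested.

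Apart from Lce6a, every tested envelope gene overlapped between WT dpc16 and WT NP libraries; S100a13 was the other member without overlap, so that 2 of 21 members stood apart, against 15.6% of all genes tested. Sprr1a held 27.4, 17.9 and 8.39 FPKM in WT dpc16 libraries and 16.5, 21.8 and 70.7 FPKM in WT NP libraries, and Sprr4 held 4.73, 2.79 and 1.80 against 8.90, 0 and 69.7 FPKM. WT NP library 3 was the highest for both genes, and it also had the highest sum of granular markers, 622 FPKM, where the other 2 WT NP libraries had 247 and 240. Its infundibulum markers (4258 FPKM, against 1236 and 1483) and bulge markers (15330 FPKM, against 8398 and 8880) were the highest of that group too, and the part of any of these cells in the Sprr values was not tested. Cst6 counts in both the granular and the infundibulum sums, so they are not separate measures. Lce1m held 11.9, 11.1 and 1.77 FPKM in WT dpc16 libraries and 5.37, 31.6 and 15.8 FPKM in WT NP libraries, with overlap. Tgm3, a transglutaminase that crosslinks envelope proteins, was the 1 gene of the 5 partner lists that passed in this comparison. It measured 112, 111 and 107 FPKM in WT dpc16 libraries, against 19.8, 4.84 and 15.4 FPKM in WT NP libraries (log2 change 3.15 ± 0.42, adjusted p = 0.0252 by limma).

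Between cKO and WT NP cells, which differ in both genotype and pregnancy, S100a14 and S100a16 passed again (5.66% of all genes tested passed, 2.91% as lower and 2.76% as higher). An unadjusted p under 0.05 was reached by 10 of 21 members and by 23.8% of all genes tested, and 9 members did not overlap, against 26.4% of all genes tested. S100a14 measured 439, 528 and 727 FPKM in cKO libraries, against 1085, 1189 and 1411 FPKM in WT NP libraries (log2 change -1.14 ± 0.19, adjusted p = 0.0124 by limma). S100a16 measured 179, 202 and 228 FPKM in cKO libraries, against 352, 414 and 499 FPKM in WT NP libraries (log2 change -1.04 ± 0.15, adjusted p = 0.00877 by limma). Both calls stood in all 9 fits that left out 1 library, with adjusted p up to 0.0445 for S100a14 and 0.035 for S100a16. Since this comparison shares the cKO libraries with the first one, it is no independent evidence. Spinous markers summed to 6214 to 8247 FPKM in cKO libraries and 14370 to 16900 FPKM in WT NP libraries, with 14 of 15 below 0 and 5 past the threshold as lower. Fibroblast markers (2 of 9 tested) summed to 22.5 to 55.7 and 90.4 to 118 FPKM, and all 12 cycling markers had a log2 change below 0, of which 1 passed. The part of these cells in the S100a14 and S100a16 values was not tested. Sprr2a3 missed the threshold (log2 change -1.94 ± 0.51, adjusted p = 0.0546 by limma), and Sprr4, Sprr1a, S100a4 and S100a9, with log2 differences of -2.70, -1.39, -1.51 and 1.54, did not pass either.

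In the single-cell libraries the granular layer could be seen directly. The deposited matrices held 37686 barcodes, of which 36927 were kept, close to the 36912 cells the series states, with medians of 4448 to 5638 UMIs per cell. Pairs of libraries shared 75 to 154 barcode sequences. Cells were clustered with all member genes left out, so that the members could not define their own layer. Of 23 clusters, 1 was called granular-like, from 16 of 22 granular markers, and held 779 cells. These were 191 of 6491 NP cells (2.94%, exact 95% interval 2.54 to 3.38), 148 of 12853 dpc16 cells (1.15%, 0.97 to 1.35), 144 of 9031 dpp6 cells (1.59%, 1.35 to 1.87) and 296 of 8552 dpp40 cells (3.46%, 3.08 to 3.87). The intervals cover counting error only. With 1 library per state there is no test between states, and states cannot be told apart from libraries.

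Members took 11.9% of all UMIs in granular-like cells and 0.746% in all other cells. Of the 36 members with at least 200 UMIs, 21 were highest in the granular-like cluster: all 16 Lce genes of that group, Lor, Ivl, Flg, Flg2 and Hrnr. Loricrin led with 50460 CPM, followed by Lce1m with 31970, Lce1a2 with 7382, Lce1a1 with 5172, Lce1b with 4314 and Lce1c with 3856. Filaggrin-2 (Flg2) had 3438, filaggrin 1049, hornerin (Hrnr), another fused-type filament-associated protein, 317 and involucrin 219. Lce1a1 and Lce1a2 are close copies, and reads could be divided between them by the authors' counting. The members Lce3a, Lce3b, Sprr2k, Sprr3 and Tchhl1 had 0 UMIs, which allows up to 0.0129 CPM over all cells.

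Outside that cluster Lor and Lce1m were at low levels, which immune cells shared in part. Lor had 220 to 514 CPM over the 20 other clusters with at least 50 cells, and 300.1 in the Langerhans-like and T cell-like clusters together, cells that do not make loricrin. Lce1m had 128 to 195 over the other clusters and 173 in the immune clusters. In the immune clusters Lor was at 412 in NP, 209 in dpc16, 264 in dpp6 and 407 in dpp40, and in spinous-like cells at 323, 167, 235 and 392. The highest Lor level, 514 CPM (468 to 565) in the infundibulum-like cluster 20, was above the immune level (286 to 314) beyond counting error. That cluster held 118200 CPM of infundibulum and 104100 CPM of granular markers, with Cst6 a marker of both, so its name is uncertain. The part of granular cells in its Lor level was not tested. Levels near that of the immune clusters were read as free RNA or RNA of mixed droplets. No difference between states was read from Lor or Lce outside the granular-like cells. In the infundibulum-like cluster 12, others were above the immune level: Ivl had 111 CPM there, against 12.5 in the immune clusters, Flg 36.5 against 8.63, Lce6a 15.03 against 3.38 and Hrnr 10.8 against 1.86. Ivl had 34.1 in spinous-like cells.

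**Figure D2:**
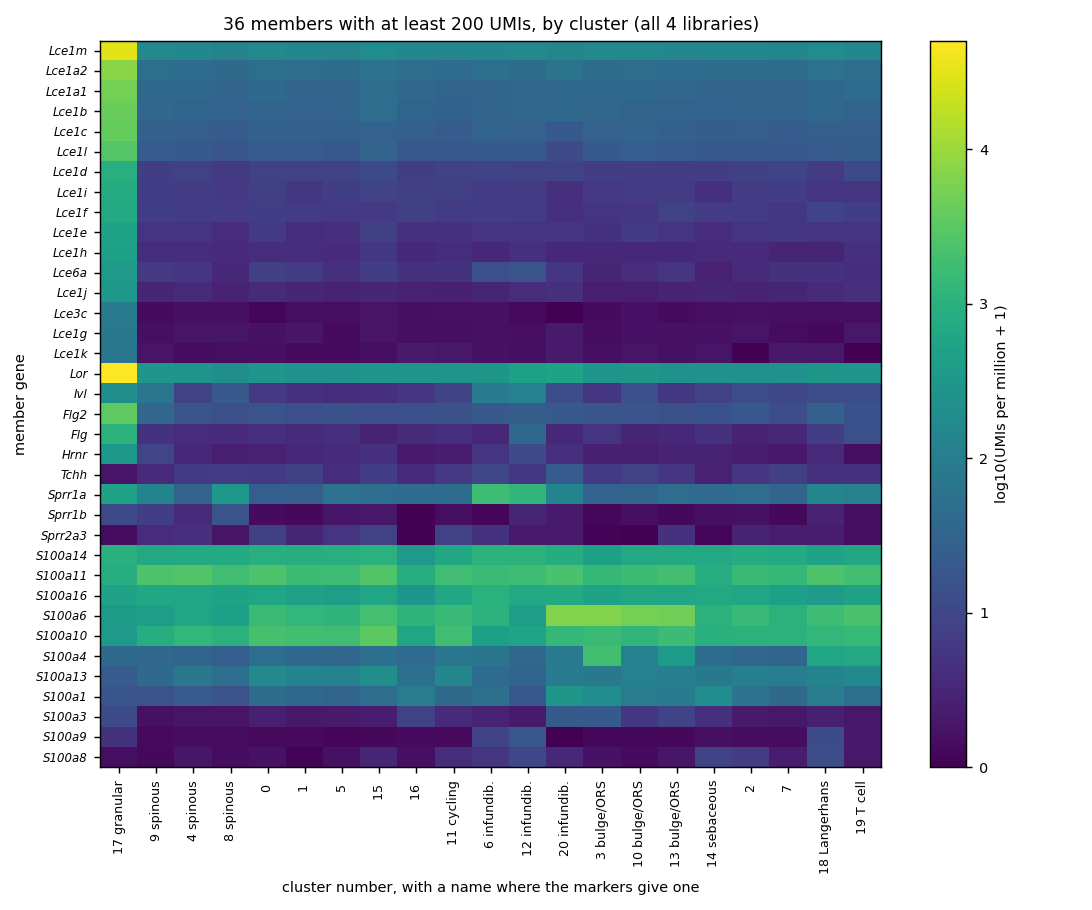
Level of the 36 members with at least 200 UMIs (rows, log10 of CPM + 1) in each cluster with at least 50 cells (columns, numbered, some with a name), all 4 libraries together. Clusters with basal markers, and clusters 15 and 16 with cycling markers, are shown by number only. The Lce genes, Lor, Flg, Flg2 and Hrnr stand out in cluster 17, Sprr1a in clusters 6 and 12, S100a6 in clusters 3 and 20, and S100a4 in cluster 3.

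Other members peaked elsewhere. Sprr1a, a proline-rich envelope precursor, had 1752 CPM in infundibulum-like cluster 6 and 1265 in cluster 12, against 514 in granular-like cells and 132 in the immune clusters. S100a6 had 6567 in the bulge-like cluster 3 and S100a4, known from motile cells, 1934 there, against 361 and 41.7 in granular-like cells. S100a6 was nearly as high in the infundibulum-like cluster 20, with 6350 CPM. By state, S100a4 in cluster 3 stood at 1332 (NP), 1185 (dpc16), 2357 (dpp6) and 1860 (dpp40) CPM, and S100a6 at 7665, 6954, 6005 and 6694. S100a10 and S100a11 were highest in cluster 15, which carries cycling markers, with 3258 and 2653, and lower in granular-like cells, with 346 and 866. Trichohyalin (Tchh) and repetin (Rptn), fused-type proteins, both had 22.1 in infundibulum-like cluster 20, which holds 156 cells. Sprr2a3 was sparse, with 641 UMIs in all cells and 1.015 CPM in the immune clusters. It was highest in clusters 15 and 11, with 7.04 and 7.01 CPM. Over all cells it had 1.11 CPM in NP, 3.49 in dpc16, 4.31 in dpp6 and 1.58 in dpp40. In spinous-like cells it had 1.30, 2.70, 5.89 and 0.512 CPM by state, with 14 UMIs in NP and 8 in dpp40. In cluster 0, which carries basal markers, it had 4 UMIs in NP, 46 in dpc16, 37 in dpp6 and 45 in dpp40, or 1.33 (0.362 to 3.40), 5.57 (4.08 to 7.43), 9.97 (7.02 to 13.7) and 9.64 (7.03 to 12.9) CPM with exact Poisson 95% intervals.

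Along the chromosome the first members are the S100a genes from S100a1 to S100a9, which include S100a14, S100a16 and S100a6, and the last are S100a11 and S100a10. Loricrin stands alone between them and the Sprr cluster, and Ivl and Lce6a between the Sprr and Lce clusters. The 13 Lce1 genes other than Lce1m span 204.8 kilobases. Lce1m lies 166.5 kilobases from the nearest of them, beyond 6 Lce3 genes, of which the highest in granular-like cells, Lce3c, had 90.7 CPM.

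**Figure D3:**
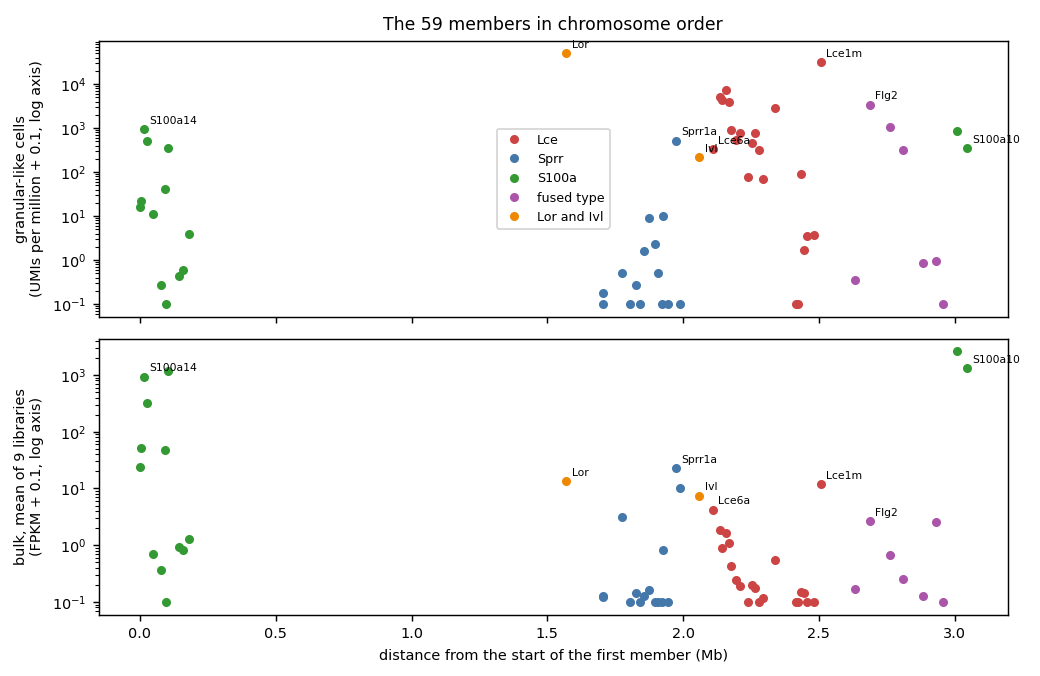
Level of the 59 members in granular-like cells (above, CPM + 0.1) and in bulk sorted cells (below, mean FPKM of 9 libraries + 0.1) by distance from the start of the first member, on log axes, coloured by family. In granular-like cells Lor and Lce1m are highest, and in the sorted cells the S100a genes at both ends are.

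Summed over the granular-like cells, the Lce genes other than Lce1m were higher at dpc16 than in NP, while loricrin and filaggrin were lower. Members as a whole took 10.96% of UMIs in NP, 12.5% in dpc16, 14.98% in dpp6 and 10.7% in dpp40, folds over NP of 1.141, 1.37 and 0.978. The 20 Lce genes other than Lce1m summed to 17430, 35780, 36840 and 25880 CPM in the same order, 2.05-fold, 2.11-fold and 1.49-fold the NP level. A few cells carried these sums: the cells with at least 20% of their UMIs in Lce genes, 12 in NP, 22 in dpc16, 17 in dpp6 and 29 in dpp40, held 79.9%, 81.1%, 90.1% and 89.5% of the other-Lce UMIs of their library. In those cells the level was 195800 CPM in dpc16 and 218800 CPM in NP. The cells were picked by their Lce share, so these levels follow largely from the rule and do not compare the states. Lce1m itself had 28080 in NP, 32100 in dpc16, 40290 in dpp6 and 30060 in dpp40. Of the 16 Lce genes with at least 200 UMIs in these cells, 10 were at least 2-fold higher in dpc16 than in NP and 0 at least 2-fold lower, and of all 29 members with that many UMIs 11 and 0 were. Among all 4367 genes with that many UMIs, 0.847% were at least 2-fold higher and 1.28% at least 2-fold lower. In dpp6, 8 Lce genes were at least 2-fold higher than in NP (0.779% of all genes, and 1.37% lower), and in dpp40 2 were (0.435%, and 0.55% lower). A fold above 1 was found for 16 of 16 Lce genes in dpc16 (42.2% of all genes), 15 in dpp6 (37.1%) and 15 in dpp40 (56.4%). Most UMIs of the Lce genes other than Lce1m came from the same few cells, so the genes counted here are not independent. The shares of all genes beside these counts are no test. The median dpc16 over NP fold was 2.12 for the 16 Lce genes and 0.956 for all 4367 genes.

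The largest fold among the Lce genes was that of Lce1g. It had 296 UMIs in dpc16 and 50 in NP, or 141 and 19.5 CPM, a 7.20-fold difference (exact 95% interval 5.32 to 9.92, counting error only). Lce1j was 3.13-fold higher in dpc16 than in NP (565 and 180 CPM) but lower in dpp6 (91.8), and at dpp40 it stood at 409. Lce1h was 3.06-fold and Lce3c, whose family is known from wounded and psoriatic skin in humans, 3.06-fold higher in dpc16 than in NP, and Lce1e 2.77-fold. Lce6a was 1.33-fold higher in dpc16 (469 and 354) and at 261 in dpp40.

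Among members of the other families with at least 200 UMIs in these cells, hornerin had the largest dpc16 over NP fold. It had 307 CPM in NP, 693 in dpc16, 296 in dpp6 and 173 in dpp40, so that the dpc16 library was 2.25-fold above NP (2.07 to 2.46). Lor had 54560, 48490, 63230 and 43310 in the same order. Flg had 1264, 820, 1243 and 946, and Flg2 4143, 3095, 3994 and 2967. Both filaggrins were therefore lowest relative to NP in dpc16 and dpp40, at 0.724-fold for their sum in each. Ivl had 198, 239, 253 and 205. Sprr1a had 402, 523, 762 and 453, and Sprr1b, with 118 UMIs in all, 2.73, 33.3, 1.30 and 7.59. S100a14 stayed between 879 and 1040 and S100a16 between 476 and 589 in the 4 libraries, while S100a11 ranged from 634 in dpp6 to 1025 in dpp40.

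**Figure D4:**
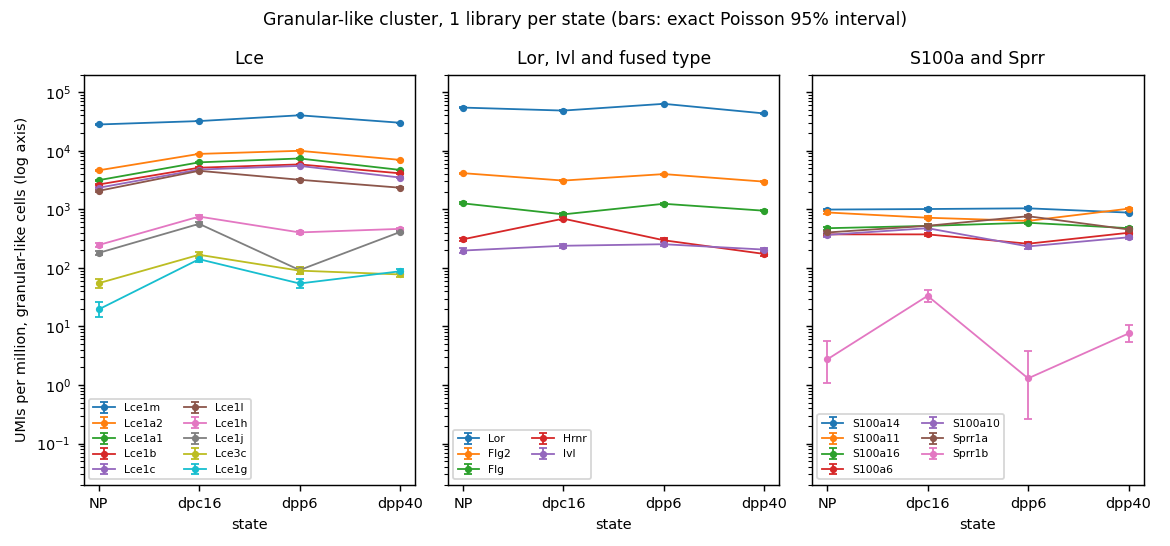
CPM in the granular-like cluster for named members (lines) in the NP, dpc16, dpp6 and dpp40 libraries, on a log axis with exact Poisson 95% intervals. Most Lce genes and Hrnr are higher in dpc16 than in NP, Lor, Flg and Flg2 are lower, and Lce1j is lowest in dpp6.

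Over whole epidermis the members gave other folds. Members summed to 0.730-fold (dpc16), 0.979-fold (dpp6) and 1.10-fold (dpp40) the NP level over all cells. Lor and Ivl together were at 0.407-fold and Flg with Flg2 at 0.325-fold in dpc16, the library with the lowest share of granular-like cells (1.15%, against 2.94% in NP).

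Granular-like cells were far from alike in their Lce content. The median cell had 0.189% of its UMIs in Lce genes and the cell at the 90th percentile 21.1%, and the 77 cells with the most Lce UMIs held 66.2% of all Lce UMIs, where the 77 with the most Lor UMIs held 31.4% of the Lor UMIs. Cells were therefore divided by their own Lce share, at bounds chosen after the values were seen: 435 cells under 0.5%, 134 from 0.5 to 5%, 130 from 5 to 20% and 80 at 20% or more. Between 11 and 19 cells lay within 0.1 times the value of each bound, and median depth was 13967, 11975, 13510 and 15839 UMIs. The division is a range on 1 measured axis, so the Lce levels along it are a description of the rule.

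Along that range the members did not run in parallel. Involucrin was highest at the low end: its summed level was 331, 136, 33.7 and 5.45 CPM from the lowest to the highest Lce share, and the median cell had 0 in the upper 2 ranges. Loricrin was lowest in the first range, with 17990, 72050, 110600 and 107100. Filaggrin had 490, 1897, 2203 and 1139, and Flg2 2541, 5404, 5465 and 2426, both highest in the middle. Hornerin had 371, 376, 208 and 87.9. S100a14 had 1119, 1172, 655 and 193, and S100a16 552, 674, 439 and 101. With Lce UMIs left out of the total, the median cell had 1021, 1224, 606 and 264 CPM of S100a14 and 8799, 83700, 131700 and 173200 of Lor, so S100a14 was lower at the upper end also without the Lce UMIs in the total. The spinous keratin Krt10 had 16770, 1652, 917 and 919 by the same measure. Krt5 and Krt14, the keratins of the basal layer, were at 270 to 363 and 392 to 609 in the median cell of each range.

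Lce1m and the remaining Lce genes differed in where on the range they were high. Lce1m had 427 CPM in cells under 0.5% and 21780 in cells from 0.5 to 5%, whereas the other 20 Lce genes together had 462 and 1451. In the next ranges Lce1m had 87900 and 137200, and the others 21340 and 225100. The ratio of other Lce UMIs to Lce1m UMIs was thus 0.0666 in cells from 0.5 to 5%, 0.243 from 5 to 20% and 1.64 at 20% or more. The same order was found in each library. In cells from 0.5 to 5% the ratio was 0.0760 (NP), 0.0516 (dpc16), 0.0597 (dpp6) and 0.0713 (dpp40), and in cells at 20% or more it was 1.55, 1.66, 1.64 and 1.66. From 5 to 20% the ratio was 0.614 in dpc16 (23 cells), against 0.210 in NP (31 cells), 0.196 in dpp6 (27 cells) and 0.166 in dpp40 (49 cells). Lce UMIs were unevenly spread over cells, so a few cells could set these ratios, and a difference between states was not tested. Cells under 0.5% gave a ratio of 1.08, at 427 CPM of Lce1m, where the immune clusters had 173.

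**Figure D5:**
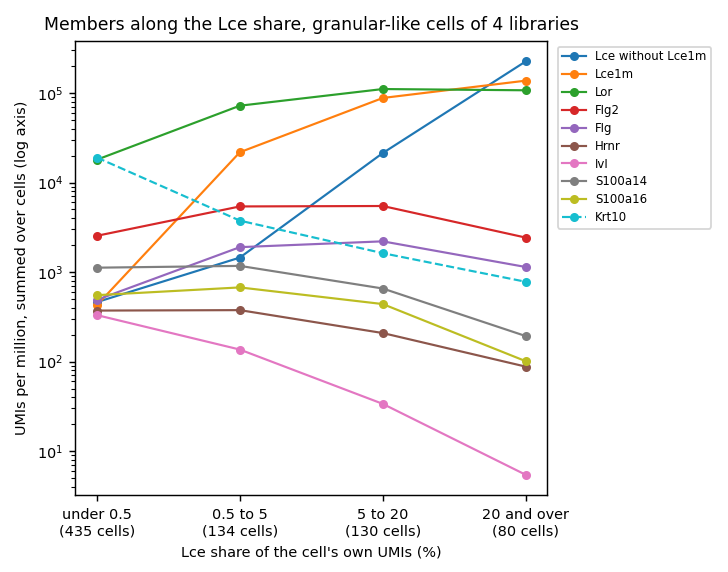
Summed level of members and of Krt10 (dashed) in 779 granular-like cells divided by the Lce share of each cell's own UMIs, on a log axis. Ivl and Krt10 go down from left to right, Lce1m goes up one step before the other Lce genes, and Flg and Flg2 are highest in the middle ranges.

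Cells of each state were spread over the whole range. Those at 20% or more made up 12 of 191 granular-like cells in NP (6.3%, exact 95% interval 3.3 to 10.7), 22 of 148 in dpc16 (14.9%, 9.6 to 21.6), 17 of 144 in dpp6 (11.8%, 7.0 to 18.2) and 29 of 296 in dpp40 (9.8%, 6.7 to 13.8). The NP and dpc16 intervals overlap only from 9.6 to 10.7%, and neither share lies inside the interval of the other. Overlap of intervals is no test, and the intervals cover counting error only. How much of the summed Lce difference between states goes with these shares was not tested. Among cells at 20% or more the Lce genes other than Lce1m had 218800, 195800, 235500 and 238900 CPM in the same order. In cells from 5 to 20% they had 17090 (NP, 31 cells), 39500 (dpc16, 23 cells), 17770 (dpp6, 27 cells) and 17050 (dpp40, 49 cells) CPM, highest in dpc16. From 0.5 to 5% they had 1841, 975, 1564 and 1420 CPM, lowest in dpc16. Each of these values comes from few cells that were picked by their Lce share, and a difference between states was not tested. Among cells at 20% or more, Lce1j had 2671, 3334, 627 and 4115. Hornerin was higher in dpc16 than in NP in all 4 ranges of Lce share. From the lowest range to the highest, dpc16 cells had 882, 755, 490 and 218 CPM and NP cells 403, 216, 200 and 55.3 CPM. Involucrin was at 454 in dpc16 and 293 in NP in the lowest range and at 3.21 and 12.3 in the highest.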

How the data were processed

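RNA of 9 bulk and 4 single-cell libraries was analysed. The authors deposited bulk values as FPKM per gene, and raw UMI counts per gene and barcode for single cells. Among tools, the submitters' processing notes list Cell Ranger 2.2.0 (single cells), Cufflinks 2.2.1, Cuffdiff, TopHat2 and cutadapt 1.14, with mm10 as the build and no roles. Annotation, strand setting and scaling across libraries: not given in the sources used here. Bulk columns headed WT were taken as WT dpc16, since NP and cKO have headings of their own, and libraries are numbered by column order.

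From the FPKM, log2(FPKM + 1) was fitted with limma 3.58.1 (R 4.3.3) where the 9-library mean reached 1 FPKM: 3 group means over 9 libraries, a trended empirical Bayes estimate, two-sided tests, Benjamini-Hochberg adjustment over all genes tested and a threshold of 0.05. The fit was tested on simulated data. Alternatives were a pseudocount of 0.1, no filter, a filter of 5 FPKM, quantile normalization, the 6 libraries compared alone, a block by column number, and each library left out.

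Barcodes needed 200 genes or more, with no more than 10% of UMIs mitochondrial. Scrublet, at an expected rate of 6%, called 0 doublets in 4 libraries, so it did not work here and doublets remain. Cells were clustered on 2000 variable genes less the members among them, 30 components, 15 neighbours and Leiden resolution 1 (scanpy 1.11.5, leidenalg 0.10.2, Python 3.11.15, seed 1), without integration. Each cluster was scored by the mean log2 fold of each marker list over all other cells. It was named for the highest list where that mean reached a set bound and at least 3 markers, at 20 CPM or more, were raised over the other cells. Clusters with basal markers had more markers of other classes among their leading genes, so they are given by number. Clusters 15 and 16, for which the cycling list was highest, are given by number too. UMIs were summed per library and cluster, with exact Poisson intervals, which like the binomial intervals cover counting error only. The floor for a member with no UMI is 3 counts.

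Positions come from GENCODE M21 (mm10) and promoters from RefSeq (GRCm38.p6), aligned end to end with Biopython 1.88. No promoter entry was matched for S100a14, S100a10, S100a2, Lce1f and Sprr2j-ps. Members passing the test were named, with the 6 most abundant of each family, the 5 largest changes of each comparison, and list genes with the smallest p. S100a4 by state and Lce1j within ranges were added after their values were seen. The members and lists were chosen with earlier results of these data known. A gene of the regulator list is not reported here.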

Additional observations from a re-analysis of the deposited data

How the results depend on the processing

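Between cKO and WT dpc16, the count of members past the threshold was 3, and 0 with no filter on low values, 1 with only the 6 libraries compared and 0 to 2 with 1 library left out. All genes past it were 247, and 87, 118 and 41 to 390 under those settings. Between cKO and WT NP the members were 2, and 5 with the replicate block and 2 to 3 with 1 library left out, and all genes 651, and 314 with no filter, 167 with the 6 libraries and 123 to 721. Between WT dpc16 and WT NP members stayed at 0 in every setting, and all genes were 15, 9 with no filter and 5 to 15. With 1 library left out of a group, its remaining 2 are assumed to vary like the others. The block by column number gave 202 genes between cKO and WT dpc16 and ended the Sprr2a3 call (adjusted p = 0.0734). Same-numbered libraries correlated from -0.212 to 0.357 in their deviations. Between cKO and WT dpc16 the values were 0.312, 0.0692 and 0.357, and those of differently numbered libraries ran from -0.335 to 0.091. Not every same-numbered pair was over 0.1, and the main fit does not pair libraries by number. Whether these libraries were made in pairs is not known. The cause of these shifts was not tested.

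Near-zero changes between WT dpc16 and WT NP turned sign: Ivl at 0.04 with quantile normalization and -0.32 to 0.19 with 1 library left out, Sprr2a3 at -0.14 to 0.90. Adjusted p for S100a14 between cKO and WT dpc16 was 0.112 with no filter, 0.108 with quantile normalization and 0.092 with the 6 libraries.

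In granular-like cells the summed member folds over NP for dpc16, dpp6 and dpp40 were 1.10, 1.34 and 1.009 with at most 5% mitochondrial UMIs (724 cells), so that dpp40 crossed 1. They were 1.15, 1.38 and 0.988 at resolution 0.5 (775 cells). For dpc16 and dpp6 they were 1.16 and 1.43 over the UMIs of other genes, and 1.13 and 1.38 in clusters made with all variable genes (785 cells). Over all cells they were 0.703, 0.991 and 1.09 with at most 5% mitochondrial UMIs, and 0.728 for dpc16 over the UMIs of other genes. Depth limits the genes with few UMIs, such as Lce1g and Sprr2a3, and bulk members under 1 FPKM.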
